A study of Rattus norvegicus and Ovis aries with 113 samples.

Results

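The comparison was of whole brain RNA between sheep (Ovis aries) and rats (Rattus norvegicus), for genes whose symbol is the same in both. Its members were chosen by a fixed rule: 5 sheep brain totals, each the sum of the 10 dissected brain libraries of an animal, against 14 of the 15 male rat brain libraries, out of 113 libraries in the series. Rat 4 was left out because 83.1% of its counts lay in ribosomal RNA entries. A symbol was used when it occurred once in each species after its letters were changed to capitals and was not a placeholder (LOC) or ribosomal RNA entry, which left 15703 symbols of 31304 sheep and 38675 rat entries. Joining on symbols was the only check of orthology.

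All animals were males past puberty and none had been treated, per the labels. The sheep were numbers 687, 688, 690, 694 and 699, of a breed not given in the labels, and each gave the basal ganglia (BG), cerebellum (CB), entorhinal (EC), frontal (FC), motor (MC), prefrontal (PC), posterior parietal (PPC) and visual (VC) cortex, hippocampus (Hip) and pons from 1 hemisphere. The rats were Sprague Dawley animals 3 and 5 to 17, whose brains were taken whole. Hypothalamus, midbrain, thalamus, olfactory bulb, pituitary and pineal are not among the sheep dissections, and the 10 sheep libraries do not weight the regions as an intact brain does. RNA extraction, library kit and demultiplexing software also differed between the species, so species, dissection and preparation cannot be told apart in any difference given here. Counts were not divided by gene length, and the annotated length of a gene can differ between the sheep and rat annotations, which was not tested.

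A brain's RNA is a mixture from neurons, which fire and release transmitter, astrocytes, which clear transmitter and feed neurons, oligodendrocytes, which make myelin, microglia, which are the resident macrophages, and cells of the vessels and choroid plexus. Some genes mark a single place: oxytocin and vasopressin are made in the hypothalamus, dopamine and serotonin in the midbrain and hindbrain, and the α6 GABA receptor subunit in cerebellar granule cells. A comparison of brain totals therefore reads cell makeup, regional makeup and gene regulation together.

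Levels are given in CPM, counts per 1000000 on the shared symbols, scaled by edgeR's TMM factors (trimmed mean of M values). Depth on the shared symbols was 344747573 to 387216154 counts in the sheep totals and 32047614 to 48738891 in the rats, or 61.5% to 63.7% and 56.8% to 89.3% of all counts. Rats 9 and 16 held the most ribosomal RNA counts, up to 34.1%, against a median of 2.94%. Genes expressed by the pituitary or pineal were high in rats 5, 6, 12, 13 and 14, as given below. On a log scale, the libraries correlated at 0.990 to 0.993 within sheep, 0.972 to 0.990 within rats and 0.739 to 0.766 between the species, a description over genes. Defining markers of neurons, astrocytes and myelin (SNAP25, GFAP, MBP) stood at 1922, 6217 and 9849 CPM in sheep and 3823, 719 and 11098 CPM in rats, so both sets read as brain.

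Shared genes were called different between the brains in both directions, in similar numbers. Of 14626 symbols tested, 5788 (39.6%) were called different, 3041 (20.8%) higher in sheep and 2747 (18.8%) higher in rats, by edgeR's quasi-likelihood test. A call needed an adjusted p (Benjamini-Hochberg) under 0.05 together with a log2 fold change, sheep over rat, of 1 or more in size. The median log2 fold change over all tested symbols was 0.02. Scaling to a common total and by TMM factors centres the fold changes, so this median and the balance of directions are partly set by it. For 5404 of the called symbols the 5 sheep totals and the 14 rat libraries did not overlap. That was not counted over all tested symbols, and groups also separated for symbols not called, such as APP. Whatever the size of the change, 12340 symbols (84.4%) had an adjusted p under 0.05 in the edgeR test. The 95% interval of the log2 fold change lay wholly between -0.5 and 0.5 for 3362 symbols (23.0%). Among the 12341 symbols that averaged 1 CPM or more in both species, 3880 (31.4%) were called. Mean levels in the species had a Pearson correlation of 0.843 on log2(CPM + 1) and a Spearman correlation of 0.844, over symbols that share libraries and differ in length.

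**Figure D1:**
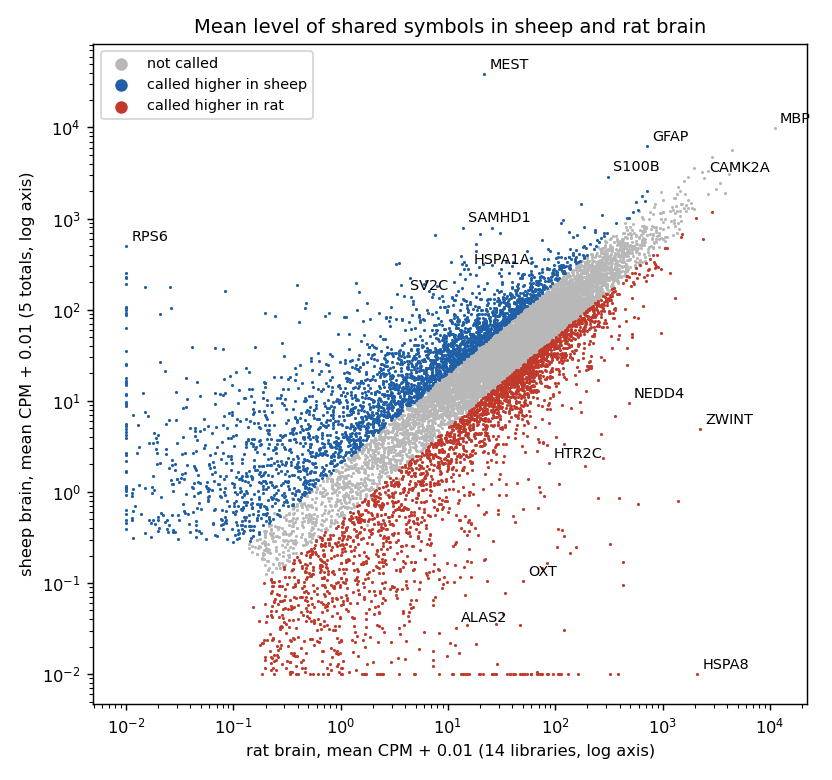
Mean CPM of each of 14626 shared symbols in 14 rat brain libraries (x) and 5 sheep brain totals (y), both on log axes after adding 0.01. Blue points were called higher in sheep (3041), red points higher in rats (2747) and grey points were not called; symbols with no count in 1 species lie along the edges.

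The most abundant genes with the closest levels were of the synapse, the membrane and the cytoskeleton. CAMK2A, the α subunit of the calcium/calmodulin kinase of the postsynaptic density, was at 2368, 2939, 2925, 2738 and 3048 CPM in sheep 687, 688, 690, 694 and 699, the order used throughout. In rats its lowest, median and highest values were 1966, 2368 and 3148 CPM. These ranges overlap, and the log2 fold change was 0.19 ± 0.08 (SE) with a 95% interval of 0.02 to 0.37. GPM6A, a membrane glycoprotein of neurons, averaged 1865 ± 175 CPM in sheep (SD, n = 5) and 1623 ± 172 in rats (SD, n = 14). MAP2, the dendritic microtubule protein, averaged 1679 ± 139 and 1303 ± 98.9 CPM, and APP, the amyloid precursor, 1292 ± 110.2 and 1587 ± 89.0. The remaining 6 genes of this kind were GNAS, CALM2, ACTG1, PSAP, ACTB and YWHAG, with log2 fold changes from -0.32 (GNAS, a G protein α subunit) to 0.03 (YWHAG, a 14-3-3 protein). Of 17 commonly used reference genes 1 was called, B2M (log2 fold change -1.31 ± 0.11 (SE), edgeR adjusted p 1.80e-10), the light chain of class I antigen receptors. GAPDH averaged 1868 CPM in sheep and 2677 in rats, below the fold threshold.

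The largest fold changes all belonged to symbols with no count in any library of 1 species. RPS6, a protein of the small ribosomal subunit, averaged 495 ± 57.5 CPM in sheep (SD, n = 5) and had 0 counts in 14 rat brains. Against a floor of 3 counts over the rat group, 0.00513 CPM on plain totals, it was at least 93834-fold higher in sheep. CEND1, a neuronal cell cycle exit protein, averaged 253 ± 21.7 CPM, HNRNPH3, a splicing factor, 226 ± 14.7, RPS9 224 ± 25.7 and NDUFB2, a complex I subunit, 189.7 ± 9.35, each with 0 rat counts. CERS1, NAA60, GDF1, OTUB1 and PNMA1 were also at 0 in rats, with 107, 103, 99.6, 91.8 and 86.9 CPM in sheep. On the rat build GRCr8, Rps6 (chromosome 5, 106417680 to 106420540) lies wholly inside Dennd4c, Hnrnph3 (chromosome 20, 25619540 to 25624397) inside Rufy2, Ndufb2 (chromosome 4, 69334307 to 69341394) inside Braf, and Cend1 (chromosome 1, 205954713 to 205957710) inside Slc25a22. All 10 of these rat genes lie wholly inside other annotated genes. Of the 20 symbols at 0 in rats with at least 10 CPM in sheep, 19 had a rat position and 15 of those (78.9%) lay wholly inside other genes, against 3.26% of all tested symbols with a position. How the deposited counting treats a read that falls in 2 genes is not given in the sources used here, so these zeros give no level of the rat gene.

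In the other direction, HSPA8, the constitutive HSP70 chaperone, had 0 counts in all 50 sheep brain libraries and 1800.2, 2067 and 2385 CPM (lowest, median, highest) in rats. Its count was at least 1252800-fold higher in rats against the sheep floor of 3 counts over the group, a bound that covers counting error only. DYNLL1, a dynein light chain, averaged 381 ± 77.6 CPM in rats (SD, n = 14), MLLT11 323 ± 32.3, RPL27, of the large ribosomal subunit, 165 ± 37.2, and UBE2B, a ubiquitin-conjugating enzyme, 132 ± 19.3, all at 0 in sheep. CSNK2B, CCDC85B, PSMB6, SLC39A7 and ENHO were at 0 in sheep as well, with 113, 108, 107, 95.1 and 85.0 CPM in rats. Altogether 45 symbols had 0 sheep counts and at least 10 CPM in rats, and 3 of their rat genes lay wholly inside others. Sheep positions were not used here, so these zeros give no level of the sheep gene. Among lists described below, the microglial CD68, the cholesterol enzyme EBP and the fatty acid binding protein FABP3 had 0 sheep counts as well. They were at 2.42, 14.3 and 41.8 CPM in rats, and the same limit holds for their calls.

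**Figure D2:**
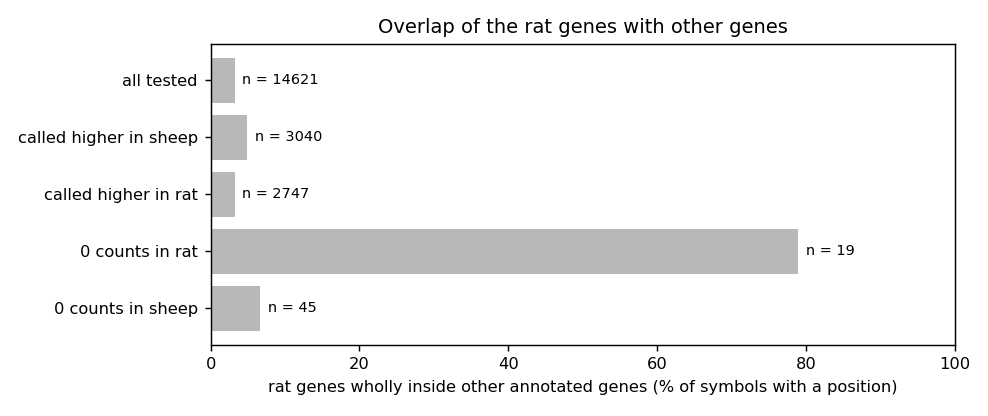
Share of symbols whose rat gene lies wholly inside other annotated genes of GRCr8, in percent of the symbols with a position (n beside each bar). The bar for symbols with 0 rat counts and at least 10 CPM in sheep reaches 78.9%, and that for all tested symbols 3.26%.

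Ranked the same way among symbols with at least 1 CPM in both species, a rule added after the values were seen, MEST led the genes higher in sheep. MEST, a hydrolase-like protein expressed from the paternal allele (rat chromosome 4, 60321814 to 60332288), was at 44498, 37628, 38421, 34910 and 37453 CPM in the sheep and 17.5, 21.3 and 28.4 CPM in rats. Every regional mean of MEST in sheep lay between 30137 (pons) and 61810 CPM (basal ganglia), and its log2 fold change was 10.78 ± 0.12 (SE, edgeR adjusted p 8.40e-25). That sheep level is above those of MBP and GFAP given above. Sheep gene positions were not used here, so which reads the sheep count of MEST holds was not tested, and its level is uncertain. LRRN4CL averaged 194 ± 25.1 against 1.39 ± 0.277 CPM, DIRAS3, a small GTPase, 325 ± 54.4 against 3.49 ± 0.695, and SAMHD1, which degrades deoxynucleotides, 793 ± 119.8 against 13.8 ± 0.927. AIF1L, an actin-bundling protein, averaged 679 ± 113 against 19.8 ± 2.81 CPM, with its highest regional mean, 2125 CPM, in pons. SNRPN, ALDOA and SLC5A3 ranked with them (316, 654 and 83.3 CPM in sheep, 3.26, 7.56 and 1.06 in rats), and their rat genes also lie wholly inside other genes.

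ZWINT, a kinetochore protein that neurons also express (rat chromosome 20, 15502559 to 15953701), led the genes higher in rats, at 1976, 2222 and 2485 CPM against 4.25, 4.27, 5.59, 5.46 and 4.66 CPM in the sheep. Its log2 fold change was -8.86 ± 0.12 (SE, edgeR adjusted p 1.00e-23). NEDD4, a ubiquitin ligase, averaged 483 ± 36.6 CPM in rats and 9.33 ± 1.29 in sheep, GPRASP1, which sorts receptors to lysosomes, 362 ± 45.1 and 6.76 ± 0.296, and RAB5B, an early endosome GTPase, 266 ± 19.1 and 4.29 ± 0.188. ATP5F1E, the ε subunit of ATP synthase, averaged 188 ± 43.9 and 1.90 ± 0.340 CPM, and GJC3, a connexin of myelinating glia, 108 ± 24.2 and 1.20 ± 0.615. Each of these 6 rat genes overlaps other genes over less than 10% of its length, and no rat library overlapped a sheep total for any of them. Their low counts are in sheep, where gene positions were not used here. The rat overlap therefore cannot show whether the sheep counts lost reads to other genes.

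Several genes of astrocytes were higher in sheep. Of 12 tested astrocyte markers 5 were called higher in sheep and 0 higher in rats, with a median log2 fold change of 0.85, against the 20.8% and 18.8% of all symbols given above. Those shares are the background for every list count below, and a list near them does not stand out from all symbols. GFAP, the intermediate filament of astrocytes, was at 5482, 6662, 6926, 5535 and 6479.6 CPM in the sheep and 499.6, 674 and 1276 CPM in rats, so that the log2 fold change was 3.11 ± 0.14 (SE, edgeR adjusted p 6.28e-15). The lowest sheep total was above the highest rat. S100B, a calcium-binding protein of astrocytes and some oligodendrocytes, was at 2490.3, 2892, 3289.9, 2632 and 3030.2 and 245, 302 and 406 CPM, 3.22 ± 0.09 (SE). SOX9, a glial transcription factor, SLC1A3, a glutamate transporter, and ALDH1L1, a folate enzyme, had log2 fold changes of 1.75 ± 0.08, 1.46 ± 0.09 and 1.15 ± 0.10 (SE). The connexins GJA1 and GJB6 and the receptor FGFR3 were not called (-0.27, -0.17 and -0.29). GFAP in pons averaged 25266 CPM over the 5 sheep, yet the other 9 regions, from 2603 CPM in frontal cortex, each averaged above the highest rat. In bulk tissue, fewer cells of a type and less RNA per cell cannot be told apart.

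Few neuronal and myelin markers were called. Of 12 neuronal markers 1 was called in each direction: SYT1, the calcium sensor of vesicle release, higher in sheep (1088 ± 121 against 270.5 ± 102 CPM), and THY1, a surface glycoprotein, higher in rats (858 ± 68.2 against 319.7 ± 55.1 CPM). Among 20 oligodendrocyte and myelin genes 2 were called higher in sheep (GALC and ERMN) and 2 higher in rats (MAL and OLIG2), with a median log2 fold change of 0.00. Without sheep 699 the counts were 1 and 4, and the value of ERMN was 0.99 and its call ended. MBP averaged 9849 ± 2885 CPM in sheep and 11098 ± 3008 in rats, with overlapping groups. PDGFRA, the receptor that marks oligodendrocyte precursors, was the 1 called gene of the 8 in its list, at 169 ± 31.9 CPM in sheep and 58.1 ± 13.5 in rats.

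Of 15 microglial genes 3 were called in each direction, a share of 20.0% against the 20.8% and 18.8% of all symbols. P2RY12, the nucleotide receptor of resting microglia, averaged 74.9 ± 17.5 CPM in sheep and 18.7 ± 3.07 in rats, LAPTM5 119 ± 19.5 and 30.3 ± 5.38, and TMEM119 39.7 ± 8.64 and 11.1 ± 4.10. C1QA, of the first complement component, was higher in rats, 60.1 ± 13.7 against 14.3 ± 4.61 CPM. The partners of C1QA in the same complex, C1QB and C1QC, were not called (-0.45 and -0.15), nor were AIF1, CX3CR1 and TREM2.

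Vessel genes that were called were all higher in sheep. Of 16 tested endothelial and mural genes 5 were called higher in sheep and none higher in rats, with a median of 0.88. Without sheep 687 the count was 8. RGS5, a G protein regulator of pericytes, was at 217, 324, 298, 339.8 and 378 CPM in sheep and 9.83, 12.9 and 20.3 CPM in rats, 4.41 ± 0.16 (SE, edgeR adjusted p 7.77e-17). KDR, the main receptor for vascular growth factor, averaged 54.5 ± 13.0 and 13.6 ± 2.67 CPM, and SLC2A1, the glucose transporter of the blood-brain barrier, 302 ± 76.5 and 108 ± 9.85. VWF and ACTA2 were called with overlapping groups. CLDN5, of the tight junctions, averaged 40.0 CPM in sheep and 77.8 in rats and missed the fold threshold, which it passed without sheep 694 (-1.07) or 699 (-1.02).

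Blood genes went the other way, higher in rats in 7 of 9 tested. ALAS2, the first enzyme of heme synthesis in red cells, was at 5.04, 9.71 and 31.1 CPM in rats and at most 0.0470 CPM in the sheep, -9.01 ± 0.65 (SE, edgeR adjusted p 2.08e-11). SLC4A1, the anion exchanger of red cells, averaged 1.62 and 0.0896 CPM, and the neutrophil proteins S100A8 and S100A9 0.691 and 1.05 CPM in rats and 0.0664 and 0.134 in sheep. BPGM, a red cell glycolysis enzyme, averaged 109.5 and 39.3 CPM. The lymphocyte genes CD3E and CD79A were not called. HEMGN and AHSP were higher in rats at 0.378 and 0.752 CPM, and the log2 fold change of AHSP went from -2.58 to -4.32 without sheep 690.

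Choroid plexus genes were also higher in rats: 6 of 11 tested, against 1 higher in sheep. CLIC6, a chloride channel protein, averaged 11.0 ± 6.30 CPM in rats and 1.07 ± 0.780 in sheep, and AQP1, the water channel of the plexus epithelium, 8.24 ± 3.85 and 0.851 ± 0.462. TTR, which carries thyroxine in cerebrospinal fluid and is the defining product of this epithelium, was at 211, 52.7, 230.4, 643 and 54.8 CPM in the sheep and 219.6, 674 and 1220.5 CPM in rats, ranges that overlap. Its regional means in sheep ran from 2.84 CPM in prefrontal cortex to 608 CPM in hippocampus. The cause of the spread among the sheep totals was not tested. The log2 fold change of TTR was -1.60, and -2.38 without sheep 694. The 1 gene higher in sheep was TMEM72 (8.74 and 2.27 CPM).

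**Figure D3:**
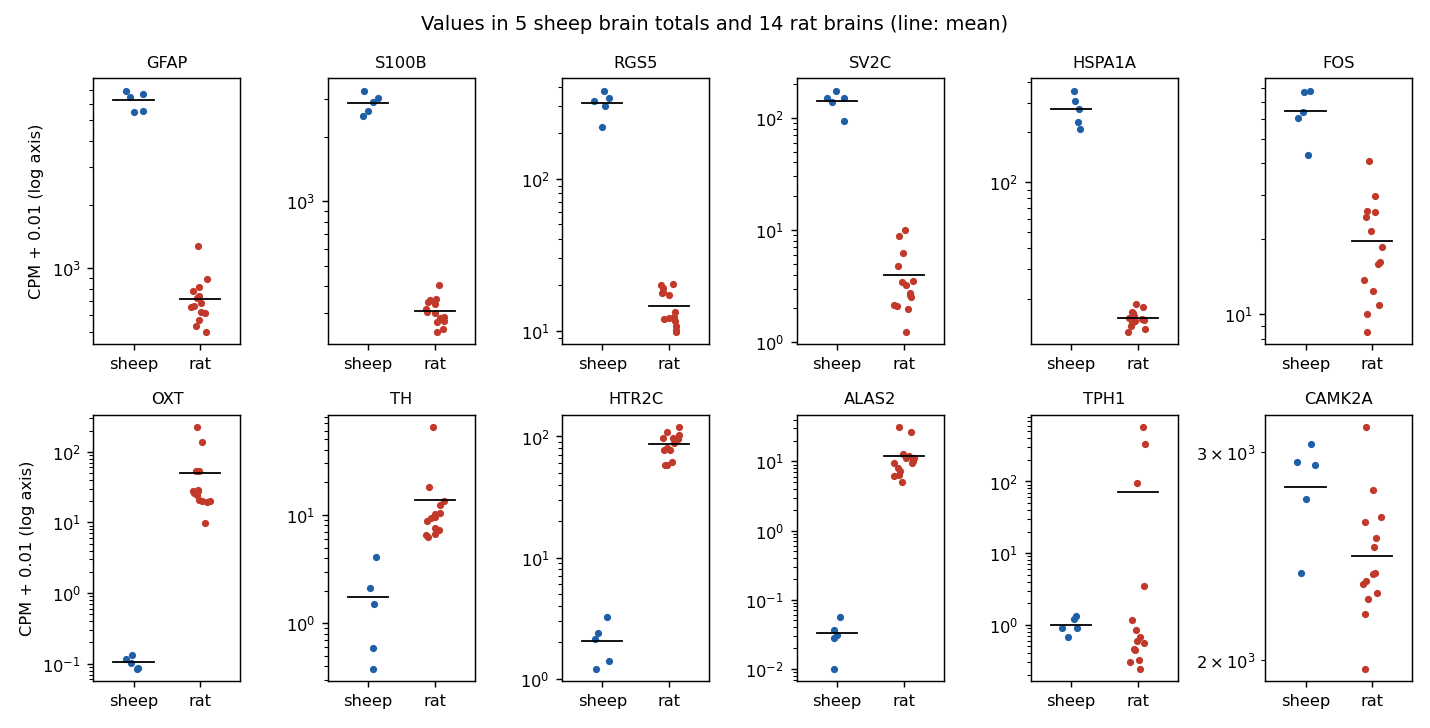
CPM plus 0.01 (log axes, scales differ between panels) of 12 genes in 5 sheep brain totals (blue) and 14 rat brains (red), with a line at each mean. GFAP, S100B, RGS5, SV2C, HSPA1A and FOS lie higher in every sheep than in any rat, OXT, TH, HTR2C and ALAS2 lie lower, TPH1 is high in 3 rats and CAMK2A overlaps.

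Genes of the hypothalamus, which was dissected from no sheep, were mostly higher in rats. Of 17 hypothalamic genes 0 were called higher in sheep and 11 higher in rats, with a median of -1.78. OXT, the oxytocin precursor, was at 9.95, 27.2 and 223 CPM in rats and 0.0769, 0.106, 0.0916, 0.121 and 0.0746 CPM in the sheep, -9.02 ± 0.97 (SE, edgeR adjusted p 1.56e-08). No regional sheep library exceeded 0.303 CPM of OXT. AVP, the vasopressin precursor, averaged 28.2 ± 52.7 and 2.60 ± 0.579 CPM, GAL, galanin, 4.53 ± 1.28 and 0.0557 ± 0.0763, and HCRT, the orexin precursor, 4.70 ± 1.95 and 1.09 ± 0.279. Without sheep 690 the log2 fold change of GAL moved from -6.33 to -7.65. The other called genes were NPVF, GHRH, SIM1, HDC, AGRP, OTP and NKX2-1, each with means of at most 1.99 CPM. KISS1, CARTPT, TRH, TBX3, CRH and POMC were not called. Several of those are also made outside the hypothalamus; CARTPT averaged 24.4 CPM in sheep and 27.0 in rats and CRH 7.77 and 4.59. POMC averaged 2.57 CPM in sheep and 4.06 in rats, where rat 9 held 44.1 CPM and the median was 0.996. Without rats 9 and 16 it was called higher in sheep, with a log2 fold change of 1.31.

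Genes of monoamine neurons followed, with 1 of 14 called higher in sheep and 9 higher in rats. TH, the rate-limiting enzyme of dopamine synthesis, was at 0.370, 1.50, 0.576, 2.11 and 4.07 CPM in the sheep and 6.30, 9.51 and 64.4 CPM in rats, -2.98 ± 0.63 (SE). SLC18A2, which loads monoamines into vesicles, was at 0.834, 1.50, 0.952, 1.13 and 1.65 and 17.8, 22.9 and 49.5 CPM, and its highest sheep regional mean, in pons, was 5.15 CPM. SLC6A4, the serotonin transporter, averaged 3.97 ± 4.07 CPM in rats and 0.524 ± 0.262 in sheep, and DDC, which makes dopamine and serotonin from their precursors, 16.6 ± 9.25 and 3.73 ± 1.03. SLC6A3, the dopamine transporter, was at 0.408, 0.438, 0.381, 0.480 and 3.61 CPM in the sheep, high in sheep 699 alone, and 0.687, 2.88 and 20.1 CPM in rats. Without sheep 699 the log2 fold changes were -3.33 for SLC6A3 and -3.58 for TH. DBH and SLC6A2, of noradrenaline neurons, which the pons holds, were not called, at 2.52 and 1.25 CPM in sheep and 2.47 and 2.28 in rats. TPH2, FEV, LMX1B and PNMT were called higher in rats, PNMT no longer when the 14 female rat brains replaced the males (-0.86) and FEV no longer with voom (-1.34), and PITX3 was called higher in sheep, at 0.904 against 0.278 CPM.

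Pituitary and pineal genes varied widely among the rats, and 5 of 7 were called higher in rats. TPH1, the pineal enzyme that starts melatonin synthesis, was at 572 CPM in rat 14, 331 in rat 13 and 94.5 in rat 6, and at most 3.52 CPM in the other 11 rats and 1.33 CPM in the sheep. Its call ended without rats 5, 6, 12, 13 and 14, a set that holds those 3 rats, and the log2 fold change went from -6.19 to 0.08. Leaving out those 3 alone was not tested. ASMT, the last enzyme of that path, was highest in the same 3 rats, but its lowest rat, 2.42 CPM, was above the highest sheep, 0.203 CPM. TSHB and CGA, subunits of pituitary hormones, were highest in rats 5 and 6, at 5.93 and 4.89 CPM for TSHB and 13.6 and 9.16 for CGA. In rats 12 and 13 CGA was at 5.38 and 4.55 CPM. AANAT was not called, and CHRNA3 was called higher in sheep (10.1 and 3.95 CPM).

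Of 12 thalamic genes 2 were called higher in sheep and 4 higher in rats. NTNG1, an axon guidance protein of thalamic projections, averaged 36.8 ± 7.20 CPM in rats and 12.7 ± 2.63 in sheep, SLC17A6, the vesicular glutamate transporter of subcortical neurons, 74.3 ± 25.0 and 33.1 ± 13.5, and LHX9 5.88 ± 2.06 and 1.04 ± 1.76, with GBX2 at 1.99 and 0.804. Leaving out sheep 699 ended the call of SLC17A6 (-0.99), and leaving out sheep 694, which held most of the LHX9, moved that gene from -2.50 to -4.52. TNNT1, a troponin, and RORA, a nuclear receptor, were higher in sheep, 33.5 and 230.3 against 3.50 and 71.5 CPM. TCF7L2, PRKCD, RGS16, PLEKHG1, SYT9 and ZFHX4 were not called. Of 10 olfactory bulb genes CALB2 and TBR1 were called higher in rats and SP8 higher in sheep, and OMP, MEIS2, TRH, TBX21, SYNPR, EOMES and CDHR1 were not called. Without the neocortical libraries EOMES and CDHR1 were called higher in sheep (1.65 and 1.28), and TBX21 against female rats (1.20); OMP, of olfactory sensory neurons, stood at 0.231 and 0.192 CPM.

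Lists for regions present in both sets had calls as well. The striatal list had 2 of 14 called higher in rats, RGS9 among them, and none in sheep; the dopamine receptors DRD1 (45.8 and 43.0 CPM in sheep and rats) and DRD2 (22.4 and 27.4) were not called. In the cerebellar list 6 of 16 were called higher in rats and 1 in sheep. GABRA6, of granule cells, averaged 153 ± 52.6 CPM in rats and 54.2 ± 5.75 in sheep, and 463 CPM in sheep cerebellum alone. CALB1, a calcium buffer of Purkinje cells, averaged 252 ± 43.0 and 69.8 ± 22.7 CPM, and PCP2, a Purkinje cell protein, 62.8 ± 19.8 and 19.8 ± 2.83, while CBLN3, a granule cell synapse organiser, was higher in sheep (153 against 50.1). RGS9 lay near the fold threshold, and its call ended without sheep 690 (-0.98). Neocortical projection neuron genes were called in 2 of 14, TBR1 and FOXP2, both higher in rats; FOXP2 was at the threshold (-1.01) and no call without sheep 687 (-0.96) or 690 (-0.98). In the hippocampal list C1QL3, a secreted synapse protein, was higher in rats (158 against 23.7 CPM), and LCT, DSP and ZBTB20 higher in sheep, ZBTB20 at 464 against 138 CPM.

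Several of these calls changed with the weight of the regions in the sheep totals. When the 5 neocortical libraries of each sheep were left out, so that cerebellum made up a larger share, GABRA6 went from -1.50 to -0.54, PCP2 from -1.67 to -0.77 and CALB1 from -1.85 to -0.91, and their calls ended. The calls of TTR (-0.89), TPH2 (-0.90), LMX1B (-0.84), NKX2-1 (-0.76), SLC6A3 (-1.48), RGS9 (-0.49), FOXP2 (-0.51), CHRNA3 (0.36) and GABRG3 (0.98) ended too. Those of ALDH1L1 (0.94), ACTA2 (0.96), DIO2 (0.71), TACR3 (-0.92), NTRK2 and NR1D1 ended as well. Genes not called in the totals were called here: CCK (-2.76), ARC (-1.25) and CLDN5 (-1.23) higher in rats, and PDYN (1.55), EOMES (1.65) and CDHR1 (1.28) higher in sheep. The cerebellar list went to 4 called higher in sheep and 0 in rats, the striatal list to 1 and 0, and the choroid plexus list to 3 higher in rats, while release genes went from 7 to 11 higher in rats. VIP turned from 0.48 to -1.47, now called higher in rats, and TBR1 moved to -3.03. GFAP (3.65), S100B (3.27), RGS5 (3.89), OXT (-8.76) and SLC18A2 (-3.90) were called again. Of the 5788 calls, 5362 were made again with the same sign.

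A second view that does not depend on those weights set each rat library against all 50 regional sheep libraries. Every rat was above every sheep region for 1785 symbols (12.2%) and below every sheep region for 1997 (13.7%), and the rest overlapped. With plain totals in place of TMM factors the order turned, with 2091 above and 1713 below. Astrocyte genes had 3 of 12 with all rats below, S100B and GFAP among them: the lowest of the 50 sheep libraries held 1505 CPM of GFAP, and the highest rat 1235 CPM on the same scale. OXT and SLC18A2 were among those with all rats above. GRIN2C, an NMDA receptor subunit of cerebellar granule cells, called higher in rats in the totals (206 against 22.8 CPM), overlapped, with 186 CPM in sheep cerebellum.

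**Figure D4:**
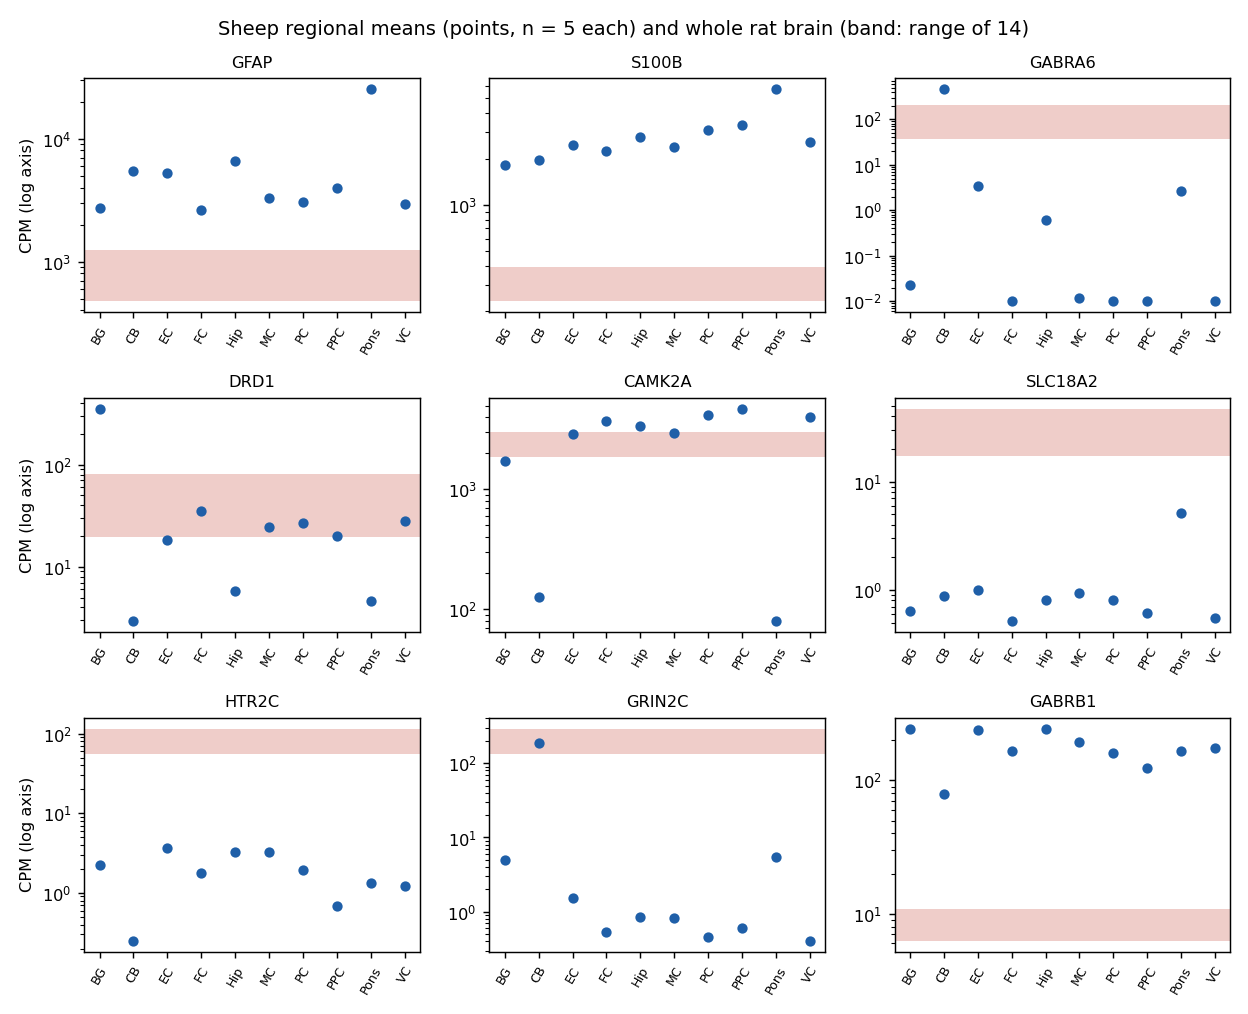
Mean CPM of 9 genes in each of 10 sheep regions (blue points, n = 5 sheep; values under 0.01 are drawn at 0.01) and the range over 14 whole rat brains (red band), on log axes. GFAP, S100B and GABRB1 lie above the band in all regions, SLC18A2 and HTR2C below it, and GABRA6, DRD1, CAMK2A and GRIN2C reach it in some regions.

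Transmitter receptors differed by subunit. Of 15 GABA-A receptor subunits 4 were called higher in sheep and 1 higher in rats. GABRB1, the β1 subunit, was at 195, 166, 224, 167 and 162 CPM in the sheep and 6.58, 7.38 and 11.2 CPM in rats, 4.52 ± 0.10 (SE, edgeR adjusted p 3.56e-20). GABRG3 and GABRG1, γ subunits, averaged 18.7 and 94.3 CPM in sheep and 4.64 and 30.7 in rats. The β2 subunit GABRB2, at 240.0 CPM in sheep and 248 in rats, was not called. Among 18 ionotropic glutamate receptor subunits the kainate subunits GRIK3 (76.2 against 12.7 CPM) and GRIK1 (88.7 against 16.6) were higher in sheep, and GRIN2C, GRIN3B and GRIA4 higher in rats; GRIN1, the obligate NMDA subunit, averaged 403 and 404 CPM. Of the 8 metabotropic receptors GRM2 and GRM6 were higher in rats and GRM3 in sheep (142 against 46.3 CPM).

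Monoamine and acetylcholine receptors had 6 of 31 called higher in sheep and 10 higher in rats. HTR2C, a serotonin receptor of choroid plexus and neurons, was at 57.7, 91.5 and 119 CPM in rats and 2.37, 1.38, 2.10, 3.19 and 1.19 CPM in the sheep, -5.41 ± 0.26 (SE). ADRA1D, an α1 adrenergic receptor, averaged 29.2 ± 6.09 CPM in rats and 0.567 ± 0.153 in sheep. HTR2A, a related serotonin receptor, went the other way, 24.0 ± 6.02 CPM in sheep and 2.60 ± 1.38 in rats. Its highest sheep regional mean was 159 CPM in basal ganglia, against 20.8 CPM in frontal cortex, the highest of the neocortical regions. DRD3 and DRD4, dopamine receptors, averaged 7.21 and 13.3 CPM in sheep and 0.144 and 0.314 in rats. OPRM1, the μ opioid receptor, averaged 18.5 ± 2.12 CPM in sheep and 0.814 ± 0.521 in rats, where another annotated gene covers 64.9% of it. OPRK1, the κ receptor, was higher in sheep as well (25.8 against 7.08 CPM), and OXTR, the oxytocin receptor, and NTSR2, a neurotensin receptor, were higher in rats (3.06 against 0.587 and 144 against 29.3 CPM). Both counts per direction in the opioid and peptide receptor list, 6 and 5 of 22, were of similar size.

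Release machinery had 7 of 21 genes called higher in rats and 2 in sheep. SV2C, a vesicle glycoprotein, was at 93.3, 150.4, 175, 139 and 152 CPM in the sheep and 1.22, 2.97 and 9.94 CPM in rats, while its paralogs SV2A and SV2B were not called (-0.15 and -0.31). SYT2, a fast calcium sensor, averaged 231 ± 54.7 CPM in rats and 54.0 ± 12.1 in sheep. SYP, CPLX1, SYN2 and VAMP1 were also higher in rats, with log2 fold changes of -1.15, -1.57, -1.15 and -1.12. For interneurons the picture was mixed: PVALB, the calcium buffer of fast-spiking cells, averaged 228 ± 58.4 CPM in rats and 51.8 ± 10.8 in sheep, GAD2, a GABA-making enzyme, 46.9 ± 24.9 and 225 ± 21.7, and the peptides SST, VIP and NPY were not called.

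Ion channel genes had few calls. Of 14 voltage-gated sodium and calcium channel genes 2 were called higher in rats, among them the sodium channel β subunit SCN2B (51.7 ± 6.22 CPM in sheep, 334 ± 48.0 in rats), and 0 in sheep. The pore-forming subunits SCN1A, SCN2A and SCN8A were not called (-0.59, 0.26 and -0.81). Of 23 potassium channel genes 2 were called in each direction. KCNC1, of fast-spiking neurons, was higher in rats (-1.14), and KCNJ9, a G protein-gated channel, higher in sheep (131 against 24.8 CPM). The call of KCNC1 ended when the neocortical libraries were left out (-0.96). Of 15 genes of the axon cytoskeleton 2 were called higher in sheep and 2 in rats. KIF5A, the kinesin of axonal transport, averaged 1517 ± 249 CPM in sheep and 561 ± 135 in rats, but its log2 fold change of 1.44 was 0.41 without the neocortical libraries. NEFM, the medium neurofilament, averaged 699 ± 369.7 and 307 ± 96.1 CPM, and its value of 1.19 was 0.85 without sheep 690, no longer called. Its partners NEFL and NEFH were not called (0.70 and 0.14).

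The matrix around neurons had 4 of 13 genes called higher in sheep and 1 in rats. NCAN, neurocan, averaged 330.1 ± 26.4 CPM in sheep and 61.1 ± 16.2 in rats, VCAN, versican, 69.3 ± 6.30 and 30.2 ± 5.26, and HAPLN1, the link protein, 19.3 ± 1.31 and 49.4 ± 4.91. ACAN, aggrecan, was not called (4.04 and 6.51 CPM). Among 26 neuropeptide and granin genes, which share OXT, AVP and GAL with the hypothalamic list, 3 were higher in sheep and 6 in rats. PCSK1, a peptide-processing protease, averaged 86.5 ± 27.7 and 18.7 ± 2.52 CPM, while its inhibitor PCSK1N was higher in rats (747 ± 95.2 against 282 ± 24.0 CPM). The striatal and cortical peptides PENK and TAC1 were not called (-0.50 and -0.02). PDYN and CCK were not called either (0.75 and -0.99), but CCK lay at the threshold and both were called without the neocortical libraries (1.55 and -2.76). Of 12 neurotrophin genes NTRK2, the receptor for BDNF, was higher in sheep (1182 ± 150.0 against 526 ± 77.3 CPM), and NGFR, a neurotrophin receptor, and CNTF were higher in rats (5.95 and 6.76 against 1.40 and 0.250 CPM). BDNF itself averaged 27.8 CPM in sheep and 22.7 in rats and was not called. The endocannabinoid list had 2 of 10 called higher in rats, CNR2 (1.16 against 0.0391 CPM) and NAPEPLD (26.9 against 8.84), and CNR1, the main receptor in brain, was not called (-0.81).

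Genes of immature and dividing cells went both ways. NES, the filament of progenitors and of new vessels, averaged 109.9 ± 15.2 CPM in sheep and 9.94 ± 1.61 in rats, and SOX11, a factor of newborn neurons, 46.4 ± 5.42 and 4.41 ± 1.03, while DCX, of migrating neurons, was not called (0.75). MKI67, of dividing cells, was higher in rats (6.90 ± 2.64 against 2.01 ± 0.403 CPM). The list had 3 of 12 called in each direction. For ependyma and motile cilia 2 of 12 were higher in sheep and 3 in rats, with SPAG6 and RSPH1 (2.90 and 1.81) on one side and CCDC39, DNAH9 and DNAI1 (-1.40, -1.33 and -1.24) on the other; the last 3 calls ended without the neocortical libraries (-0.75, -0.86 and -0.86). FOXJ1, the master factor of motile cilia, was not called. Of 12 meningeal and fibroblast genes LUM and DCN, matrix proteoglycans, were higher in sheep (24.7 and 37.3 against 6.81 and 15.8 CPM), and IGF2 and ALDH1A2 higher in rats. Hindbrain HOX genes had 2 of 11 called higher in rats, HOXB8 and HOXB3, which reached 2.61 and 3.29 CPM in rat 14 and overlapped the sheep in other rats. Without sheep 690 the list had 5 called higher in rats, and the log2 fold change of HOXB8 moved from -7.07 to -8.35.

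Part of the genes that cells switch on in response to stimuli were higher in sheep. Of 22 immediate early genes, which neurons and other cells switch on within minutes of a stimulus, 7 were called higher in sheep and 2 in rats. FOS was at 76.8, 60.7, 43.1, 64.0 and 78.1 CPM in the sheep and 8.49, 17.4 and 40.9 CPM in rats, 1.73 ± 0.26 (SE, edgeR adjusted p 2.20e-06). CCN1, a matrix signal, averaged 31.9 ± 8.40 and 3.52 ± 3.28 CPM, ATF3, a stress factor, 5.45 ± 2.97 and 0.761 ± 0.383, and IER2 38.3 ± 1.90 and 12.4 ± 3.65. EGR1 and IER5 were higher in rats, 186 ± 63.2 against 53.5 ± 13.7 CPM and 61.5 ± 17.2 against 12.6 ± 1.05 CPM, and the neuronal activity genes ARC and NPAS4 were not called (-0.58 and -0.46), though ARC was called higher in rats without the neocortical libraries (-1.25). Among 12 glucocorticoid-responsive genes 6 were higher in sheep and 1 in rats. PDK4, which restrains pyruvate use, averaged 91.9 ± 5.91 and 2.29 ± 0.441 CPM, ZBTB16, a zinc finger factor, 202 ± 4.39 and 39.8 ± 8.21, and HSD11B1, which regenerates active glucocorticoid, 3.14 ± 0.280 and 49.4 ± 4.13. Time from death to dissection is not given in the labels, and its part in these results was not tested.

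The clock list had 3 of 17 genes called higher in rats and 0 in sheep. BMAL1, which drives the clock, averaged 46.6 ± 2.62 CPM in rats and 19.4 ± 1.54 in sheep, and NR1D1, which represses BMAL1, 70.1 CPM in rats against 37.0, 34.6, 33.7, 36.3 and 33.4 CPM in the sheep. The NPAS2 and NR1D1 calls lay at the threshold, and the call of NPAS2 ended without sheep 694 and that of NR1D1 without sheep 690, 694 or 699, so that 1 of the 3 clock calls was made without sheep 694. Time of day at collection is not given in the labels. PER1, PER2, CRY1 and CLOCK were not called (0.58, -0.28, -0.08 and -0.03).

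Some heat shock genes were higher in sheep: 5 of 19 tested (26.3%) were called so, against 20.8% of all symbols. Higher in rats was 1 (5.26%, against 18.8% of all symbols), HSPA8 with its 0 sheep counts. HSPA1A, the inducible HSP70, was at 309.5, 210.1, 229.8, 278 and 356 CPM in the sheep and 12.6, 15.1 and 18.5 CPM in rats, 4.18 ± 0.09 (SE, edgeR adjusted p 2.15e-20); a near-identical neighbour gene makes its count uncertain. HSPB1, a small heat shock protein, averaged 94.3 ± 13.7 and 15.5 ± 5.23 CPM, HSPB8, its autophagy partner, 128 ± 23.9 and 30.1 ± 4.89, and CRYAB, the α-crystallin of glia, 225 ± 73.5 and 77.8 ± 17.3. The HSP90 genes HSP90AA1 and HSP90AB1 and the endoplasmic reticulum chaperone HSPA5 were not called (0.69, -0.27 and 0.05).

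Rat promoters are shown for 4 genes called higher in sheep, from the heat shock, immediate early and interferon lists, the last described next. These 4 were not picked by a rule, and each holds a match to the motif searched for its list. Each is the 250 bases before the annotated start in GRCr8, from RefSeq, with matches in capitals. The motifs searched on both strands were GAANNTTC (heat shock element core), TGACGTCA (cyclic AMP response element) and GAAANNGAA (interferon-stimulated element core), found in 7.23%, 1.59% and 8.12% of 33469 rat promoter windows of that length.
Hspb1 (chr12:26432302-26432551, minus strand): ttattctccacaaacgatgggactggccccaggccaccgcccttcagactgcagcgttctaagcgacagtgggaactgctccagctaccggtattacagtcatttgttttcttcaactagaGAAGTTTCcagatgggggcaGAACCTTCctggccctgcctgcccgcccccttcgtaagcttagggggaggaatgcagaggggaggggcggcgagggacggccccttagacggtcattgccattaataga
Hspb8 (chr12:45837058-45837307, plus strand): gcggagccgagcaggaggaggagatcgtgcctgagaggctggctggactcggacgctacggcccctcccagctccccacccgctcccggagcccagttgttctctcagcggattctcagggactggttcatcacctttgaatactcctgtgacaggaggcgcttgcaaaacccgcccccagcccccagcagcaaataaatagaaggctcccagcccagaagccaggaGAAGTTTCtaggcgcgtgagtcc
Ier2 (chr19:40399123-40399372, plus strand): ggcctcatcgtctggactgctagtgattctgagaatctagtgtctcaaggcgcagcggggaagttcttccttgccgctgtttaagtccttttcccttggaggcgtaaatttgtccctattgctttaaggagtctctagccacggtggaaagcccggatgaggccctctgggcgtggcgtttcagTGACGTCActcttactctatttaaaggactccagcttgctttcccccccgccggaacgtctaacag
Ifit3 (chr1:241527076-241527325, plus strand): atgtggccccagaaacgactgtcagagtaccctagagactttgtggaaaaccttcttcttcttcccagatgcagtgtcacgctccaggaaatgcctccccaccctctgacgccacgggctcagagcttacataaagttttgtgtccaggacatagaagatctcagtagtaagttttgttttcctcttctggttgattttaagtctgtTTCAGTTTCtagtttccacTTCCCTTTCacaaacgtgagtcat
Hspb1 holds 2 matches, Hspb8 and Ier2 hold 1 each, and Ifit3 holds 2. Among the list genes with a promoter window, matches were in 8 of 15 heat shock, 3 of 15 immediate early and 7 of 13 antigen and interferon promoters. For those called higher in sheep the counts were 2 of 4, 2 of 4 and 3 of 6, so called genes without a match are not shown. These are descriptions of the rat letters, and no sheep promoter was read here.

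Antigen presentation, interferon and complement genes were called higher in sheep in 11 of 22 and higher in rats in 1, B2M. C3, the central complement protein, averaged 308 ± 55.0 CPM in sheep and 25.6 ± 8.83 in rats, 3.59 ± 0.18 (SE, edgeR adjusted p 2.51e-14). IFIT3, an interferon-induced antiviral protein, was at 10.5, 14.8, 14.1, 9.46 and 12.4 CPM in the sheep and 0.385, 1.20 and 1.79 CPM in rats, and MX1, an antiviral GTPase, at 22.9, 37.2, 19.3, 18.1 and 22.7 and 1.12, 2.57 and 4.84 CPM, both highest in sheep 688. IFIT1 (20.7 and 0.131 CPM) has a rat gene wholly inside another. CD74, the invariant chain, and TAP1 and TAP2, which load peptides, were higher in sheep too, with log2 fold changes of 1.74, 1.66 and 1.70. ISG15, RSAD2, IRF7, IRF1, MX2, PSMB8 and PSMB9, also interferon targets, were not called. The blood list that could carry immune cells was higher in rats, and its lymphocyte markers CD3E and CD79A stood at 1.44 and 0.423 CPM in sheep and 0.927 and 0.426 in rats; its part in the immune genes was not tested.

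**Figure D5:**
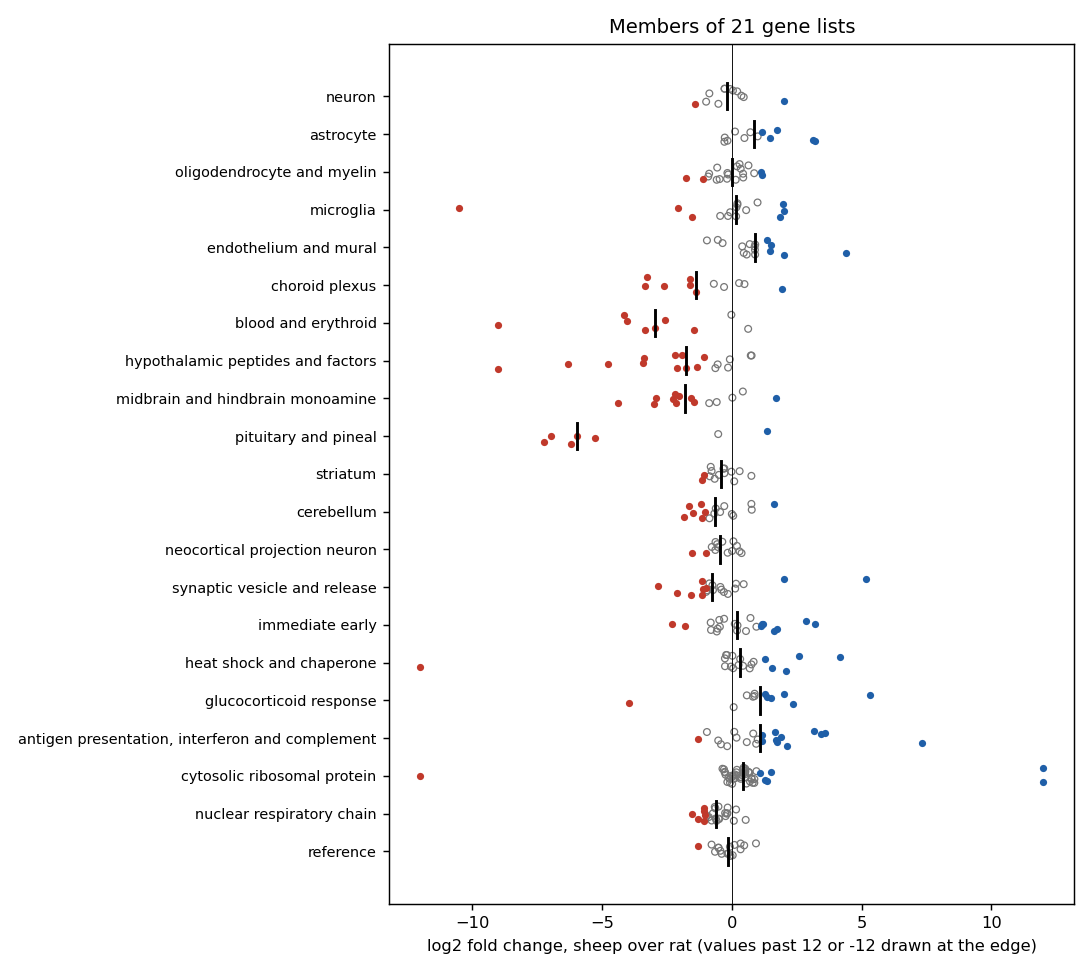
Log2 fold change (sheep over rat) of the members of 21 gene lists, blue where called higher in sheep, red where called higher in rats, open where not called, with a bar at the list median. Genes with 0 counts in 1 species are drawn at the bound set by a floor of 3 counts, and values past 12 or -12 at the edge. The astrocyte bar lies at 0.85, the glucocorticoid bar at 1.08, the hypothalamic bar at -1.78 and the pituitary and pineal bar at -5.98.

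Called genes of the respiratory chain list, which leaves out the NDUFB2 named above with its 0 rat counts, were higher in rats. Of 25 nuclear respiratory chain genes 6 were called higher in rats and none in sheep, with a median log2 fold change of -0.62. SDHC, of complex II, averaged 188 ± 22.1 CPM in rats and 64.2 ± 3.03 in sheep, and NDUFB9, of complex I, 247 ± 49.8 in rats, a log2 fold change of -1.31 ± 0.14 (SE). In the hypoxia and glycolysis list 5 of 19 were higher in rats, led by HK2 (5.98 against 0.636 CPM) and PDK1 (71.7 against 19.3), and PFKFB3, an activator of glycolysis, was higher in sheep (116 against 47.0) beside the overlapped ALDOA. Ribosomal protein genes had few calls, with 6 of 49 called higher in sheep, RPS6 and RPS9 among them, and 1 in rats, RPL27; pseudogene copies of this family make single genes uncertain. APOE, the main lipid carrier of glia, averaged 2863 ± 493 CPM in rats and 1189 ± 147 in sheep, and ABCA1, which loads lipid onto it, 37.5 ± 4.30 and 109.8 ± 21.3.

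Of 16 imprinted genes, which are expressed from 1 parental allele, 8 were called higher in rats and 4 higher in sheep. MEST, with the limit given above, was among the 4. IMPACT, a regulator of translation, averaged 472 ± 33.3 CPM in rats and 24.8 ± 4.84 in sheep, IGF2, a growth factor of meninges and plexus in brain, 342 ± 150.3 and 37.9 ± 18.4, and DLK1, a Notch-like ligand, 14.4 ± 7.63 and 0.536 ± 0.317. NNAT, NDN, GRB10, PEG3 and RTL1 were also higher in rats, and PLAGL1, MAGEL2 and the overlapped SNRPN higher in sheep. GNAS, PEG10, CDKN1C and SGCE were not called.

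Genes of the reproductive axis, which the title of the series sets beside the brain, were called in 10 of 19, 7 higher in sheep and 3 in rats. TAC3, the neurokinin B precursor, averaged 11.9 ± 3.44 CPM in rats and 1.71 ± 0.454 in sheep, and its receptor TACR3 6.53 ± 1.75 and 2.96 ± 0.420. ESR1 and ESR2, the estrogen receptors, were higher in sheep at 6.65 and 6.55 CPM against 2.69 and 1.84 (ESR1 not against female rats, 0.93), and so was SRD5A1, which reduces testosterone, at 90.6 ± 2.69 against 30.5 ± 5.20 CPM. LHCGR, the luteinizing hormone receptor, averaged 1.17 CPM in sheep and 0.133 in rats. KISS1, its receptor KISS1R and PGR were not called. In the thyroid list DIO2, which activates thyroid hormone, averaged 108 ± 21.3 CPM in sheep and 45.5 ± 4.45 in rats, and DIO3, which inactivates it, 0.513 ± 0.292 and 2.05 ± 1.85. PRNP, the prion protein, averaged 589.9 ± 73.4 CPM in sheep and 1012 ± 56.3 in rats, below the fold threshold. In the prion and amyloid list of 18, SNCB, β-synuclein, was called higher in rats (805 against 239.6 CPM), as were APOE and ITM2B, the last no call without sheep 694 or without the neocortical libraries, and BACE1, the β-secretase, was called higher in sheep (26.5 against 10.4).

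Cholesterol synthesis, which in brain serves myelin and astrocytes, had 4 of 21 genes called higher in sheep and 3 in rats. TM7SF2 and NSDHL, late enzymes of the path, averaged 61.5 ± 5.63 and 69.4 ± 6.69 CPM in sheep and 15.3 ± 1.87 and 28.5 ± 3.32 in rats, and FDPS, an early one, 22.4 ± 2.46 in sheep and 106 ± 11.0 in rats. Among 24 antioxidant and metal genes GCLM, NQO1 and SLC40A1 were higher in sheep (1.98, 1.92 and 1.52), and the superoxide dismutases SOD2 and SOD3 higher in rats (-1.03 and -1.55). SOD2 lay at the threshold, and its call ended without sheep 699 (-0.99). SOD1, GPX4, CAT and HMOX1 were not called.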

How the data were processed

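RNA-seq was measured in 10 dissected brain regions of 5 male sheep and in whole brains of male and female rats. Per the labels, RNA came from TRIzol (sheep) or a Zymo kit (rat) and libraries from a Kapa (sheep) or Watchmaker (rat) stranded mRNA kit. Per the labels, the authors trimmed reads (Trimmomatic v0.39), mapped them to ARS-UI_Ramb v3.0 or GRCr8 (STAR v2.7.5a) and summed them per gene (Rsubread v2.20.0). The deposited values are raw counts per gene and library, not normalized by the authors. Whether strand was used, and how reads in several genes or places were counted, is not given in the sources used here, so paralogs and overlapping genes are uncertain.

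The 10 counts of each sheep were summed, so that the animal is the replicate. Rat 4 was left out. Symbols were joined after capitalisation, and library sizes are sums over the 15703 shared symbols. The main test was edgeR 4.0.16 in R 4.3.3 (quasi-likelihood, TMM, filterByExpr, prior count 0.125, species as the only term). SE is the absolute log2 fold change over the root of F, and 95% intervals come from the same fit. P-values measure the spread between these animals, with 1 hemisphere per sheep and 1 library per rat. Floors cover counting error only. Positions and promoters are RefSeq's for GRCr8, on which 15613 symbols had a position.

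Genes were named by a rule: the 10 largest differences per direction with at least 10 CPM in the higher group and no overlap, the 10 most abundant with an interval within 0.5 of 0, up to 2 called members per direction of each list, region-defining members, and the 5 largest gaps per direction between the rats and the 50 regional libraries. Other list members are named to complete a list, after their values were seen, and some genes the rule names are not reported here. The members and the 51 lists were chosen with earlier results of these data known.

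Alternatives were other scalings, no filter, DESeq2 1.42.0, limma 3.58.1 (voom), glmTreat, other weights or sets of sheep regions, rat 4 included, female rats, and leaving out each sheep. Limits on the symbols tested (at least 1 CPM in both species, or rat genes overlapping no other gene) and leaving out rats 9 and 16 or rats 5, 6, 12, 13 and 14 were chosen after seeing the data. The fit was tested on simulated counts for 15610 genes with 200 changed, at log2 sizes of 1.5 and 2: 100% were recovered and 0 others called. Both groups were drawn from the rat mean levels with the same dispersion for every gene, and far fewer genes were changed than were called here. That result therefore checks the working of the fit and does not give the rate of false calls in these data.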

Additional observations from a re-analysis of the deposited data

Results flagged for a closer look

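For each of the 325 named genes that reached 1 CPM in a sheep, the 5 sheep totals were searched for a single animal far from the other 4. The values below are all those found. By chance about 1 in 20 groups is flagged, so the number found is close to that which chance gives. Such values in different animals have no explanation tested here.

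Sheep 688 stood high for 3 interferon-induced genes: RSAD2 at 6.00 CPM against 1.82 to 2.29 in the other 4, IFIT1 at 39.6 against 12.0 to 19.9, and MX1 at 37.2 against 18.1 to 22.9. The same animal was high for NQO1, a quinone reductase, at 80.4 CPM against 45.6 to 52.9. It was also high for CPLX1, a regulator of vesicle release, at 292 CPM against 192 to 216, for PVALB at 70.4 against 42.3 to 49.5 and for AVP at 3.60 against 2.12 to 2.47.

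Sheep 699 was high for SLC6A3, the dopamine transporter, at 3.61 CPM against 0.381 to 0.480, and for TMEM72 at 12.8 against 7.08 to 8.59. MAL, of myelin, was at 145 CPM in this animal against 88.3 to 103, GRB10 at 25.1 against 15.6 to 17.6 and HNRNPH3 at 252 against 217 to 223. It was low for SCN2A, a sodium channel, at 245 CPM against 331 to 361, and for NTNG1 at 8.12 against 13.1 to 14.4.

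Sheep 694 held 4.19 CPM of LHX9, a factor of thalamus, against 0.133 to 0.361, and 14.4 CPM of IER5 against 11.8 to 12.4. Sheep 687 was high for NDN, at 81.8 CPM against 59.7 to 63.8, and for TAC3, at 2.48 against 1.29 to 1.62. In sheep 690 RTL1, an imprinted gene, was at 3.55 CPM against 1.30 to 1.49.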

How the results depend on the processing

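The counts of calls over all symbols held within 1.5 times their reported size under every alternative except those that tested fewer symbols. Of 2040 counts for single lists under an alternative, 1879 did so; list counts are small, so that 1 or 2 genes can move them past it. With only rat genes that overlap no other gene, 8261 symbols were tested and 3373 were called, 1785 higher in sheep and 1588 higher in rats, and with at least 1 CPM in both species 1811 were called higher in rats. Leaving out each sheep in turn gave 5783 to 5846 calls, 3006 to 3093 of them higher in sheep and 2720 to 2793 higher in rats. Plain totals gave 2091 symbols with every rat above all sheep regions and 1713 below. Leaving out a sheep gave 1825 to 1980 symbols with every rat above, and 2037 to 2229 with every rat below, all sheep regions. Genes higher in sheep made up 50.1% to 53.6% of the calls in all settings, and no scaling moved the median of all genes by more than 0.06 (log2). Each setting put the libraries on a common scale, which partly sets this balance. For the 325 genes named, 6163 values over all alternatives kept direction and side of the threshold, 95 lost the call, 47 gained one and 4 turned. POMC turned from -0.64 to 1.34 under DESeq2 and 1.31 without rats 9 and 16, TPH1 from -6.19 to 0.08 without rats 5, 6, 12, 13 and 14, and VIP from 0.48 to -1.47 outside the neocortex; the cause was not tested. The larger part of the lost calls fell under glmTreat (29) and outside the neocortex (24). CCK and SNAP25, just under the threshold in the report, passed it under plain totals (-1.05 and -1.04) and in several other settings. MX2 was called higher in rats without sheep 688 (-1.29), RGS16 without sheep 694 (-1.04) and PGR without sheep 694 (-1.09) or 699 (-1.08). Against female rats PRKCD (-1.50) and RGS16 (-1.27) were called higher in rats, and PER1 (1.04), PSMB8 (1.11), EOMES (1.06) and TBX21 (1.20) higher in sheep. No paired analysis was possible because sheep and rats share no animal numbers. Genes near 1 CPM rest on fewer counts in rats than in the summed sheep, which were sequenced more deeply.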
